A study of Homo sapiens with 14 samples.

Results

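The NRF2 antioxidant genes described here are 10 genes taken by their symbols from the tables of reads per gene, 10 of the 28120 genes counted. They are the transcription factor gene NFE2L2, which encodes NRF2, the gene of its inhibitor KEAP1, and the target genes HMOX1, NQO1, GCLM, GCLC, TXNRD1, SRXN1, SLC7A11 and OSGIN1. Each symbol matched 1 gene in the counts and 1 in the deposited RPKM values, and all 10 passed the filter on low counts. RNA was sequenced from PANC-1, an established human pancreatic cancer line used at passage 3 to 5. Every group consisted of these cells, kept in serum-containing medium, and they differed in agent and time. DMSO, the vehicle, was given for 0, 3, 12 or 24 h, and proanthocyanidins (PA, plant polyphenols) were given at 20 micrograms per ml for 3, 12 or 24 h. The 14 libraries form 7 groups of 2. The series mentions a biological replicate, but no source used here says that the 2 libraries of a group came from separate cultures, so p-values measure the spread between these libraries.

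NRF2 is held at low levels by KEAP1, which presents it to the ubiquitin ligase built on CUL3 for degradation. Electrophiles and oxidants that modify cysteines of KEAP1 let newly made NRF2 accumulate, pair with small MAF proteins and bind antioxidant response elements near its target genes. The targets make and recycle glutathione and thioredoxin, reduce quinones, break down heme and supply NADPH, and the pathway is often active in pancreatic cancer cells. NRF2 is controlled largely through the stability of its protein, which RNA counts do not measure.

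The response element core that NRF2 and small MAF proteins bind has the letters TGACNNNGC, where N is any base. Promoter windows of 8 members, from 250 bases before to 50 bases after the transcription start, were available in RefSeq sequences of the GRCh38.p14 build and were searched on both strands. HMOX1 and SLC7A11 had no entry. NFE2L2, KEAP1 and TXNRD1 have 2 starts in that table, so the 8 members had 11 windows. The core was present in 4 of these 11 windows, which belong to 3 members, and in 13.3% of all 35116 promoter windows. The matches that lie wholly before the start are shown with 10 bases on each side, 5′ to 3′ along the gene's own strand, because their letters differ between members. Capitals mark the core, or its reverse complement where it starts with GC.
GCLM, chr1:93909446-93909474, minus strand: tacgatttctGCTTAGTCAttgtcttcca
TXNRD1, upstream start, chr12:104215670-104215698, plus strand: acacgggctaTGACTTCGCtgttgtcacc
TXNRD1, downstream start, chr12:104286920-104286948, plus strand: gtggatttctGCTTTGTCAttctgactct
KEAP1, 1 of its 2 starts, chr19:10502807-10502835, minus strand: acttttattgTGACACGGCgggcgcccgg
KEAP1, the same start, chr19:10502784-10502812, minus strand: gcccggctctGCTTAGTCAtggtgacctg
The GCLM core lay 34 to 26 bases before the start, and the KEAP1 cores 54 to 46 and 31 to 23 bases before. In TXNRD1 they lay 99 to 91 bases before the upstream start and 102 to 94 bases before the downstream start. GCLM and the KEAP1 match nearer its start had the same 9 letters. Another form, TGAGTCAGC, which contains the AP-1 letters TGAGTCA, was in 0.461% of all windows and in OSGIN1 alone among the members, 99 to 91 bases before its start. TGAGTCA by itself was in 4.95% of all windows and, among the members, only within that OSGIN1 match, which reads on the other strand.
OSGIN1, chr16:83953131-83953159, plus strand: acgggcccctGCTGACTCAcgcttatgaa
The windows of NFE2L2, NQO1, GCLC and SRXN1 held none of these 3 motifs, which says only that the letters were not in those windows.

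Libraries held 26403984 to 35213154 reads counted in genes, and the 10 members took 0.0838% to 0.108% of them. Levels are given as CPM, reads of a gene relative to the library's total and scaled between libraries by TMM, and only RPKM, which divides by gene length as well, is used to compare 1 gene with another. Changes are log2 values of PA minus DMSO at the same time with their SE, from edgeR's quasi-likelihood test over 15181 genes. A gene is called higher or lower where its Benjamini-Hochberg adjusted p is under 0.05. The keratins KRT8, KRT18 and KRT19 of ductal epithelium had median RPKM of 1165, 1223 and 502, while KRT7 (5.00) and EPCAM (2.70) were low. Among markers of other cell types COL1A1 (1.16 to 4.11) and CD68 (16.1 to 33.9) were present, and the highest count of any other was 10 reads. The PA 12 h libraries were the least alike pair (Spearman's rho 0.978 across genes), and in bulk RNA fewer cells and less RNA per cell cannot be told apart. GC-rich genes were relatively higher in PA libraries: per 10 points of GC content, log2 CPM changed by 0.578 and 0.124 in the PA 12 h libraries and by 0.328 and 0.490 at 24 h. In the 8 DMSO libraries that slope ran from -0.319 to -0.062, and in the PA 3 h libraries it was 0.163 and 0.028. Values after removing each library's trend on GC content and transcript length, called corrected values below, therefore stand beside the results they alter.

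Without PA, TXNRD1 and NQO1 were the most abundant members per length, with a mean RPKM of 69.7 and 49.2 in DMSO at 0 h. NFE2L2 (29.5), SRXN1 (27.6) and KEAP1 (22.0) followed, then GCLC (12.7), HMOX1 (8.35), GCLM (6.84), OSGIN1 (2.46) and SLC7A11 (0.295). TXNRD1 and NQO1 held the top places and SLC7A11 the last in all 7 groups. NFE2L2 moved from the third place at 0 h to the sixth in PA at 12 h (11.8) and at 24 h (10.4). HMOX1 moved from the seventh place to the fourth in PA at 24 h (18.9). Some neighbours in this order did not differ beyond their spread. At 0 h the means of NFE2L2 and SRXN1 lay closer together than the libraries of NFE2L2 (27.7 and 31.4). HMOX1 (7.78 and 8.93) stood above GCLM (6.18 and 7.51) at 0 h without overlap. In PA at 24 h KEAP1 (20.0 and 24.0) overlapped HMOX1 (17.4 and 20.3), HMOX1 overlapped SRXN1 (15.5 and 19.8), and NFE2L2 (8.87 and 11.9) overlapped GCLC (8.60 and 9.97).

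**Figure D1:**
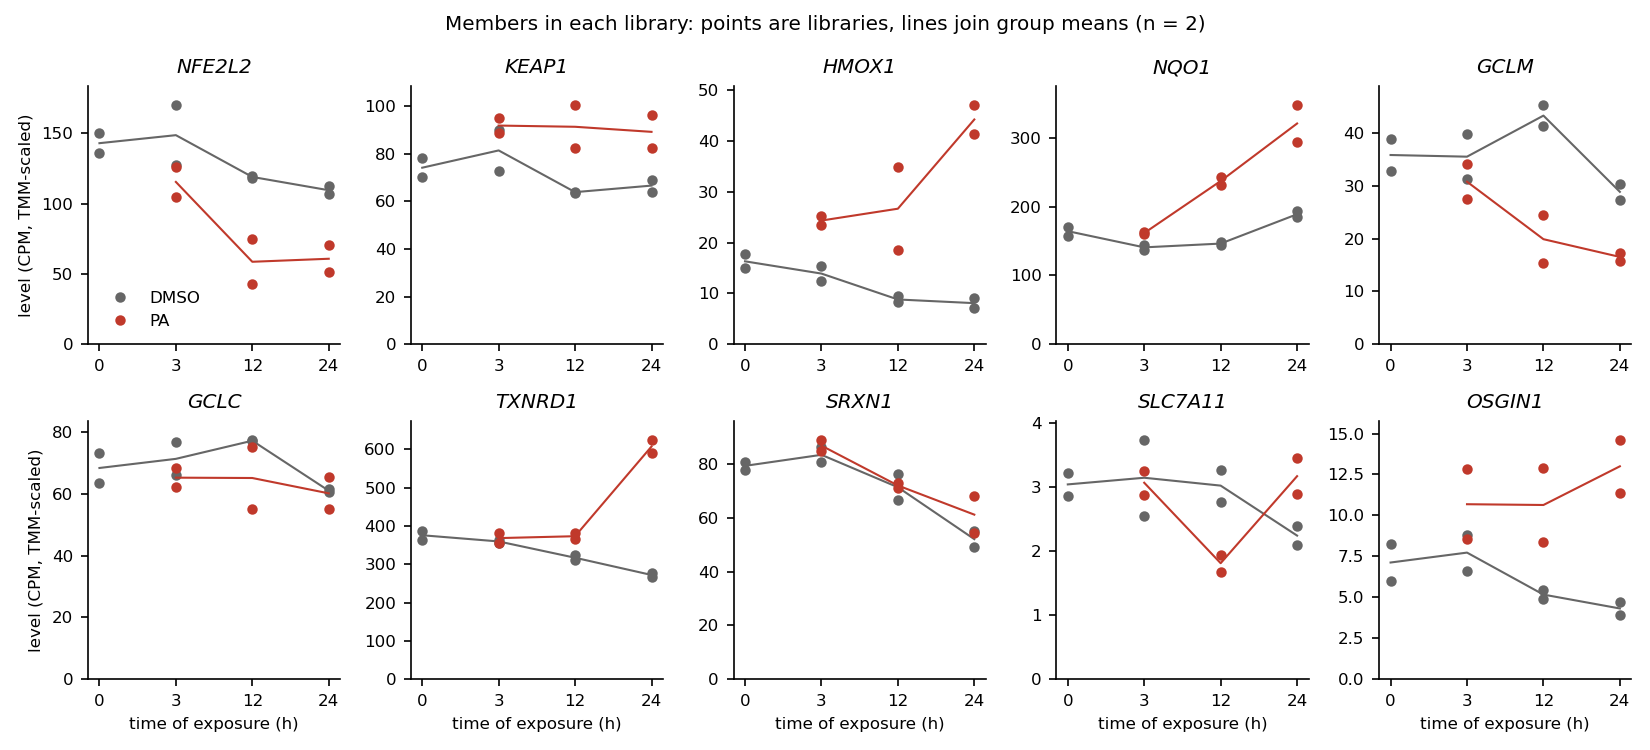
Level of each member (TMM-scaled CPM, y axis from 0) against time of exposure in h; points are single libraries, lines join the means of 2 libraries, grey is DMSO and red is PA. HMOX1 in PA at 24 h (41.4 and 47.0 CPM) and TXNRD1 in PA at 24 h (625 and 590.5 CPM) lie above every DMSO library, and NFE2L2 in PA at 12 and 24 h (42.6 to 74.7 CPM) lies below every DMSO library.

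The comparison of PA with DMSO at each time asked which members moved after 3, 12 and 24 h. PA raised some members and lowered others. At 24 h HMOX1, OSGIN1, TXNRD1, NQO1 and KEAP1 were higher, and NFE2L2 and GCLM were lower, 7 of 10 members, against 54.6% of all genes tested. At 12 h 7 of 10 were called as well, against 48.5% of all genes: HMOX1, OSGIN1, NQO1 and KEAP1 higher and NFE2L2, GCLM and SLC7A11 lower. At 3 h edgeR called 0 members, against 1.72% of all genes. Only HMOX1 had an unadjusted p under 0.05 at 3 h (0.00497), and DESeq2 called 1 member, HMOX1, against 3.85% of all genes. The share called at 12 and 24 h is therefore not far from the background, and what can be described is which members moved and by how much. The median log2 change of the members was 0.05, 0.12 and 0.46 at 3, 12 and 24 h, beside -0.01, 0.01 and -0.01 over all genes tested. PA and DMSO libraries did not overlap for 3, 9 and 8 of the 10 members at the 3 times, where 54.6%, 75.1% and 79% of all genes did not. Without either DMSO 12 h library, or without PA 12 h replicate 1, fewer members were called at 12 h. The share of all genes called fell there as well. Corrected counts were 1, 4 and 7 members at 3, 12 and 24 h, beside 4.32%, 40.2% and 49.4% of all genes. The corrected 7 at 24 h were not the same genes. KEAP1 and GCLM were no longer called, GCLC and SLC7A11 were called higher, and NFE2L2 alone was lower. On the RPKM scale genes were called lower more often than higher at 24 h (2430 higher, 5194 lower, against 4127 and 4169 with TMM). With RPKM of at least 1 in 2 libraries the median of all genes stood at -0.24 there.

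**Figure D2:**
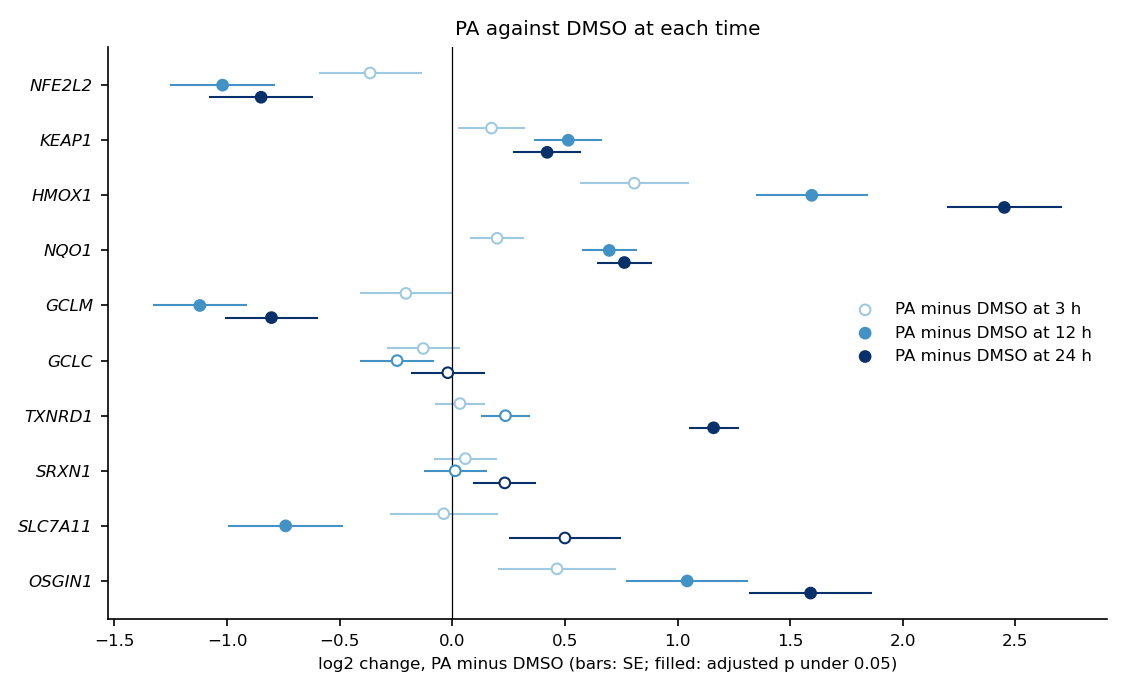
Log2 change of each member, PA minus DMSO (x axis), at 3, 12 and 24 h; bars are SE and filled points have an adjusted p under 0.05. HMOX1 reached 2.45 at 24 h, NFE2L2 (-1.02) and GCLM (-1.12) were lowest at 12 h, and GCLC and SRXN1 have open points at all 3 times.

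NFE2L2 encodes NRF2, the activator of the set, and is annotated on chromosome 2, minus strand, from 177227595 to 177392697 (GENCODE 29, GRCh38). Its level was 149.9 and 136 CPM in DMSO at 0 h, 127 and 170.0 at 3 h, 119.8 and 118 at 12 h, then 112 and 107 at 24 h. In PA it was 105 and 126 CPM at 3 h, 42.6 and 74.7 at 12 h, then 70.4 and 51.1 at 24 h. At every time the PA pair was the lower one, without overlap. NFE2L2 fell by 1.02 at 12 h (SE 0.232, edgeR adjusted p = 0.00307) and by 0.85 at 24 h (SE 0.232, adjusted p = 0.00717), 2.03-fold and 1.80-fold lower. At 3 h the change was -0.37 (adjusted p = 0.416). Leaving out PA 12 h replicate 1 or 2 gave -0.67 or -1.48 at 12 h, and the call at 24 h was lost without PA 24 h replicate 2 (-0.64, adjusted p = 0.0857). Corrected values were -0.87 and -0.64, both still called. Reads of the gene AC019080.1, which overlaps NFE2L2 on the same strand, came to 568 over all 14 libraries.

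KEAP1, the adaptor that hands NRF2 to the ubiquitin ligase, lies on chromosome 19 at 10486120 to 10503741, minus strand. Levels in DMSO were 70.2 and 78.1 CPM at 0 h, 90.0 and 72.8 at 3 h, 63.6 and 64.1 at 12 h, then 64.1 and 69.1 at 24 h. PA libraries held 94.9 and 88.7 CPM at 3 h, 100.4 and 82.2 at 12 h, then 82.2 and 96.1 at 24 h. PA was above DMSO at 12 and 24 h, and the libraries overlapped at 3 h. KEAP1 rose by 0.52 at 12 h (SE 0.151, adjusted p = 0.0125 in edgeR) and by 0.42 at 24 h (SE 0.150, adjusted p = 0.0292). The sign turned after correction for GC content and length, to -0.11 at 12 h and -0.22 at 24 h, neither called. On the RPKM scale the change at 24 h was 0.09 (limma adjusted p = 0.639). The call at 12 h was also lost with the comparison's own 4 libraries (0.50), and that at 24 h without the filter on low counts (0.39). Of single libraries, the calls needed both DMSO libraries and PA 12 h replicate 1 at 12 h (0.37 to 0.51 without them), and were lost without either DMSO library or PA 24 h replicate 2 at 24 h (0.30 to 0.47).

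Because a ratio of 2 genes within a library needs no scaling between libraries, NFE2L2 was also set against KEAP1 by count. In DMSO at 3, 12 and 24 h there were 1.42 to 2.34 NFE2L2 reads per KEAP1 read in the 6 libraries, and 1.74 and 2.14 at 0 h. In PA the ratio was 1.11 and 1.42 at 3 h, 0.424 and 0.908 at 12 h, then 0.856 and 0.532 at 24 h. PA libraries at 12 and 24 h, 4 of 4, held fewer NFE2L2 than KEAP1 reads, which no DMSO library did. In RPKM the ratio was also below 1 in DMSO 3 h replicate 1 (0.984) and in both PA 3 h libraries (0.7685 and 0.987). Averaged over the 3 times, the log2 ratio was lower in PA by a mean difference of -1.14 (2.20-fold; exact permutation test within times, two-sided p = 0.0185, adjusted p = 0.0278 over 3 ratios). The differences at 3, 12 and 24 h were -0.54, -1.59 and -1.28. Corrected for GC content and length, the mean difference was -0.51 (exact adjusted p = 0.0278). The smallest p that the 216 arrangements allow is 0.00926, and without PA 3 h replicate 1 the adjusted p was 0.0556 (-1.08).

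**Figure D3:**
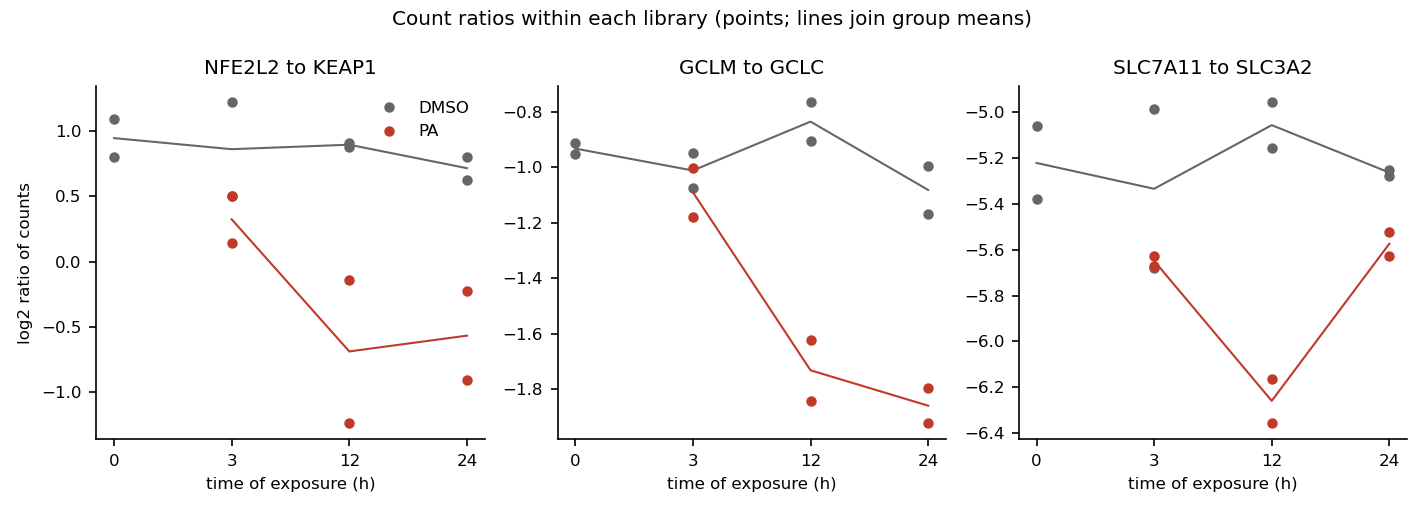
Log2 ratio of counts of NFE2L2 to KEAP1, GCLM to GCLC and SLC7A11 to SLC3A2 in each library (y axes differ and do not start at 0) against time in h; points are libraries, lines join group means, grey is DMSO and red is PA. At 12 h the PA means lie below the DMSO means by 1.59, 0.90 and 1.20 in the 3 panels, as values not corrected for GC content.

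HMOX1 encodes heme oxygenase 1, which opens the heme ring to biliverdin, iron and carbon monoxide, and it had the largest rise among the members. It lies on the plus strand of chromosome 22 at 35380361 to 35394214. In DMSO it was at 14.9 and 17.7 CPM at 0 h, 15.3 and 12.5 at 3 h, 8.22 and 9.40 at 12 h, then 7.10 and 9.07 at 24 h. PA libraries held 25.15 and 23.5 CPM at 3 h, 34.8 and 18.5 at 12 h, then 41.4 and 47.0 at 24 h. At each of the 3 times both PA libraries lay above both DMSO libraries, and all 6 were above the highest DMSO library at any time. HMOX1 rose by 1.60 at 12 h (SE 0.249, edgeR adjusted p = 0.000308), 3.02-fold, and by 2.45 at 24 h (SE 0.254, adjusted p = 9.98e-06), 5.47-fold. At 3 h the change was 0.81 (SE 0.242, adjusted p = 0.127), and its corrected value of 0.65 was called (adjusted p = 0.0235). Corrected values at 12 and 24 h were 0.97 and 1.84, both called. The PA libraries of 12 h differed most, and the change there was 1.07 without replicate 1.

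NQO1 encodes the quinone reductase that turns quinones into hydroquinones with NADH or NADPH, and it lies on chromosome 16 at 69706996 to 69726951, minus strand. It stood at 171 and 158 CPM in DMSO at 0 h, 145 and 137 at 3 h, 144 and 149 at 12 h, then 193.5 and 184 at 24 h. With PA it stood at 163 and 160.0 CPM at 3 h, 231 and 244 at 12 h, then 294 and 347.5 at 24 h. PA libraries were the higher ones at each time, by little at 3 h. NQO1 rose by 0.70 at 12 h (SE 0.122, adjusted p = 0.00061, edgeR) and by 0.76 at 24 h (SE 0.122, adjusted p = 0.000208), and its change at 3 h was 0.20 (adjusted p = 0.405). Corrected values were larger, 0.83 and 0.96. The RPKM scale gave 0.43 at 24 h (limma adjusted p = 0.0134).

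GCLM and GCLC encode the modifier and the catalytic subunit of glutamate-cysteine ligase, which carries out the first and limiting step of glutathione synthesis. GCLM lies on chromosome 1 at 93885205 to 93909456 and GCLC on chromosome 6 at 53497341 to 53616970, both on the minus strand. GCLM in DMSO was at 38.9 and 32.8 CPM at 0 h, 31.3 and 39.7 at 3 h, 45.3 and 41.3 at 12 h, then 27.4 and 30.3 at 24 h. In PA it was at 27.5 and 34.1 CPM at 3 h, 15.4 and 24.4 at 12 h, then 17.2 and 15.8 at 24 h. The groups overlapped at 3 h, and at 12 and 24 h both PA libraries were lower. GCLM fell by 1.12 at 12 h (SE 0.208, edgeR adjusted p = 0.000905) and by 0.80 at 24 h (SE 0.208, adjusted p = 0.00529). GCLM has a transcript of 37.3% GC, and its corrected values were -0.05 at 12 h (adjusted p = 0.741) and 0.23 at 24 h (adjusted p = 0.0929), neither called. GCLC was not called at any time.

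GCLC was at 73.2 and 63.4 CPM in DMSO at 0 h, 65.9 and 76.7 at 3 h, 76.9 and 77.4 at 12 h, then 61.5 and 60.5 at 24 h. PA libraries held 62.1 and 68.3 CPM at 3 h, 55.0 and 75.2 at 12 h, then 65.3 and 55.0 at 24 h. The groups overlapped at 3 and 24 h, and the changes were -0.13, -0.25 and -0.02. Without PA 12 h replicate 2 the value at 12 h was -0.48 and passed (edgeR adjusted p = 0.0164), and the corrected value at 24 h was 0.40 (adjusted p = 0.00506). Per GCLC read there were 0.446 to 0.589 GCLM reads in the 6 DMSO libraries of 3, 12 and 24 h. In PA there were 0.442 and 0.499 at 3 h, 0.279 and 0.325 at 12 h, then 0.264 and 0.288 at 24 h, below every DMSO library at 12 and 24 h. The mean log2 difference over the times was -0.58 (exact permutation p = 0.0185, adjusted p = 0.0278), with -0.08, -0.90 and -0.78 at 3, 12 and 24 h. The corrected mean difference was -0.02 (exact adjusted p = 0.787). Without PA 3 h replicate 1 the uncorrected ratio had an adjusted p of 0.0556 (-0.55).

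SLC7A11 encodes the light chain of the cystine-glutamate exchanger, which brings in the cystine used for glutathione. It lies on chromosome 4 at 138164097 to 138242349, minus strand, and was the rarest member, at 1.68 to 3.74 CPM over the 14 libraries. DMSO libraries held 3.22 and 2.86 CPM at 0 h, 2.56 and 3.74 at 3 h, 2.77 and 3.27 at 12 h, then 2.09 and 2.40 at 24 h. PA libraries held 3.25 and 2.88 CPM at 3 h, 1.94 and 1.68 at 12 h, then 2.89 and 3.45 at 24 h. PA was below DMSO at 12 h and above it at 24 h. SLC7A11 fell by 0.74 at 12 h (SE 0.255, adjusted p = 0.0277 in edgeR), and its change at 24 h was 0.50 (adjusted p = 0.103). The call at 12 h was lost without DMSO 12 h replicate 2 (-0.63), PA 12 h replicate 1 (-0.84) or PA 12 h replicate 2 (-0.64). It was also lost with the comparison's own 4 libraries (-0.75) and with log2(RPKM + 0.1) (-0.63). SLC7A11 has the lowest GC content of the members, 35.4%, and its corrected values were 0.63 at 12 h (adjusted p = 0.146) and 1.73 at 24 h (adjusted p = 0.000356). SLC7A11-AS1, on the opposite strand over 18% of SLC7A11, held 419 reads in all, and the strand setting of the counting is not given in the sources used here.

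SLC3A2, the heavy chain of the same exchanger and of other amino acid transporters, was called higher at 12 h (0.48) and at 24 h (0.82, edgeR adjusted p = 0.000927). Its partner SLC7A11 had 0.0195 to 0.0322 reads per SLC3A2 read in DMSO at 3, 12 and 24 h, 0.0122 and 0.014 in PA at 12 h, and 0.0218 and 0.0202 in PA at 24 h. The mean log2 difference of this ratio was -0.61 (exact permutation p = 0.0278, adjusted p = 0.0278), with -0.31, -1.20 and -0.31 at 3, 12 and 24 h. Corrected for GC content and length it reversed to 0.86 (exact adjusted p = 0.0278). Without PA 3 h replicate 1 or replicate 2 the uncorrected adjusted p was 0.0556.

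TXNRD1 encodes thioredoxin reductase 1 of the cytosol, a selenoprotein that keeps thioredoxin reduced. It lies on the plus strand of chromosome 12 at 104215779 to 104350305. DMSO libraries held 388 and 363 CPM at 0 h, 356.5 and 363 at 3 h, 311 and 323 at 12 h, then 277 and 267 at 24 h. PA libraries held 355 and 381 CPM at 3 h, 365 and 381 at 12 h, then 625 and 590.5 at 24 h. The 24 h PA libraries stood above all 12 others. TXNRD1 rose by 1.16 at 24 h (SE 0.111, edgeR adjusted p = 6.05e-06), 2.23-fold. At 12 h, where PA libraries were also higher, the change of 0.24 was not called (adjusted p = 0.09), and its corrected value of 0.58 was (adjusted p = 0.000181). The corrected value at 24 h was 1.57. EID3, within TXNRD1 on the same strand, held 2545 reads in all.

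SRXN1 encodes sulfiredoxin, which returns overoxidised peroxiredoxins to their active state, and lies on chromosome 20 at 646615 to 653370, minus strand. DMSO libraries held 78.1 and 80.8 CPM at 0 h, 86.4 and 80.8 at 3 h, 66.6 and 76.4 at 12 h, then 49.1 and 55.2 at 24 h. PA libraries held 84.9 and 89.1 CPM at 3 h, 71.2 and 73.1 at 12 h, then 54.5 and 68.0 at 24 h. The groups overlapped at all 3 times, and both agents had lower levels at 24 h than at 3 h. Changes of 0.06, 0.01 and 0.23 (edgeR adjusted p = 0.856, 0.947 and 0.177) were not called. AL121758.1 is annotated over 99.8% of SRXN1 on the same strand and held 5 reads.

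OSGIN1 encodes an oxidative stress-induced growth inhibitor and lies on the plus strand of chromosome 16 at 83948282 to 83966332. In DMSO it was at 8.24 and 6.01 CPM at 0 h, 8.83 and 6.62 at 3 h, 5.45 and 4.88 at 12 h, then 3.90 and 4.73 at 24 h. In PA it was at 12.8 and 8.54 CPM at 3 h, 12.9 and 8.39 at 12 h, then 11.4 and 14.6 at 24 h. The groups overlapped at 3 h, and PA was higher at 12 and 24 h. OSGIN1 rose by 1.04 at 12 h (SE 0.270, adjusted p = 0.00646, edgeR) and by 1.59 at 24 h (SE 0.273, adjusted p = 0.000345), 3.01-fold. It has the highest GC content of the members, 63.5%, and its corrected values were 0.27 at 12 h (adjusted p = 0.32) and 0.79 at 24 h (adjusted p = 0.00467). The call at 12 h was lost without DMSO 12 h replicate 2 (0.95) or PA 12 h replicate 1 (0.71), and with log2(RPKM + 1) (0.63, limma adjusted p = 0.0555).

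**Figure D4:**
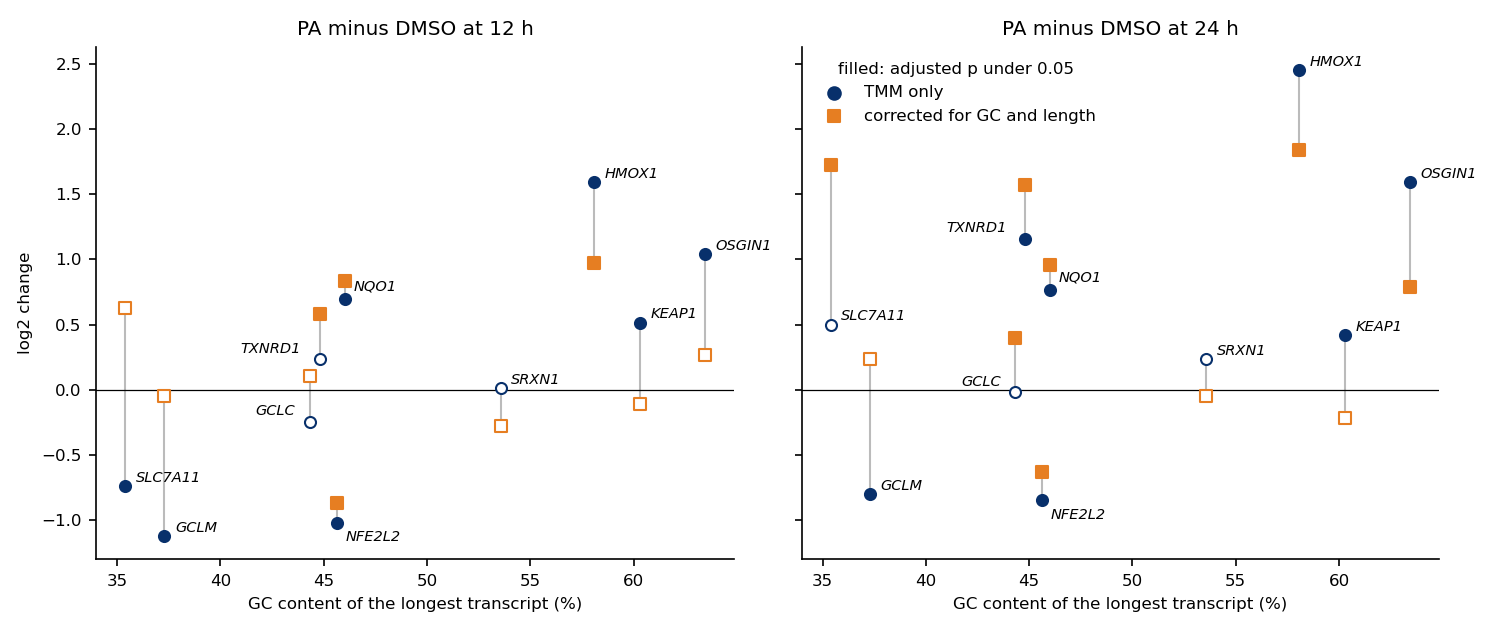
Log2 change of each member, PA minus DMSO at 12 h (left) and 24 h (right), against the GC content of its longest transcript in percent; blue points are TMM values, orange squares are corrected for GC content and length, lines join both values of a gene and filled symbols have an adjusted p under 0.05. SLC7A11 and GCLM, at 35.4% and 37.3% GC, move up after correction, and HMOX1, KEAP1 and OSGIN1, at 58.1% to 63.5%, move down, while HMOX1, NQO1 and NFE2L2 stay filled in both panels.

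Members differed in how strongly their calls depended on base composition. The 10 transcripts ranged from 35.4% to 63.5% GC around a median of 48.8% for all genes tested. HMOX1, NQO1 and NFE2L2 were called in the same direction at 12 and 24 h with and without the correction. TXNRD1 and OSGIN1 were called higher both ways at 24 h only. The calls of KEAP1 and GCLM were lost after it at 12 and 24 h, with the sign turned for KEAP1 at both times and for GCLM at 24 h. The 12 h calls of SLC7A11 and OSGIN1 were lost too, with the sign turned for SLC7A11. TXNRD1 at 12 h, HMOX1 at 3 h, and GCLC and SLC7A11 at 24 h were called higher only after it. What gives the PA libraries their GC trend was not tested.

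Whether the response to PA itself changed with time was tested as the difference between the changes at different times, which share no library. For TXNRD1 the change at 24 h exceeded that at 12 h by 0.92 (SE 0.155, edgeR adjusted p = 0.0257). It was the only one of 10 members called, against 0.422% of all genes in either direction and 0.263% with a larger change at 24 h. SLC7A11 (1.24, edgeR adjusted p = 0.204) and HMOX1 (0.855, adjusted p = 0.4205) were not called, with an unadjusted p of 0.00371 and 0.0275. Between 24 and 3 h the differences were 1.64 for HMOX1 (SE 0.345, adjusted p = 0.00912), 1.13 for TXNRD1 (SE 0.155, adjusted p = 0.00105) and 0.57 for NQO1 (SE 0.171, adjusted p = 0.0429), 3 of 10 members against 14.4% of all genes, or 8.24% in this direction. OSGIN1 (1.13, adjusted p = 0.0596) did not pass. Between 12 and 3 h edgeR called 0 of 10 members, against 2.79% of all genes. There 3 members, HMOX1, NQO1 and GCLM, had an unadjusted p under 0.05, and DESeq2 called 1, GCLM (-0.95), against 7.96% of all genes. Corrected values of the 4 called differences were 0.99, 1.19, 1.40 and 0.69, in the order TXNRD1 between 24 and 12 h, then HMOX1, TXNRD1 and NQO1 between 24 and 3 h, all called. The NQO1 difference was lost without any of 7 of the 8 libraries involved (0.43 to 0.60). The difference for TXNRD1 between 24 and 12 h was lost without 5 of the 8, namely any DMSO library or PA 24 h replicate 1 (0.88 to 0.95). It was also lost with the comparison's own 8 libraries (0.91, edgeR adjusted p = 0.228) and with RPKM of at least 1 in 2 libraries (0.73, limma adjusted p = 0.0587). NQO1 was lost as well without the filter on low counts (0.51) and on each of the 3 RPKM scales (0.21 to 0.22, limma adjusted p = 0.347 to 0.462). HMOX1 was lost without DMSO 24 h replicate 1 (1.47, edgeR adjusted p = 0.0519) and with log2(RPKM + 1) (1.16, limma adjusted p = 0.0528).

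The DMSO series gives the background over the same day. At 24 h DMSO libraries were lower than at 0 h for HMOX1 (-1.01, SE 0.249, edgeR adjusted p = 0.0487), SRXN1 (-0.61, SE 0.141, adjusted p = 0.0389) and TXNRD1 (-0.47, SE 0.110, adjusted p = 0.0406), 3 of 10 members against 2.46% of all genes, or 1.93% for lower alone. Leaving out any of the 4 libraries involved ended all 3 calls, with values of -1.20 to -0.85, -0.70 to -0.53 and -0.52 to -0.38 in that order. DESeq2 size factors left 1 call, SRXN1, and either unfiltered RPKM scale left 0. At 12 h edgeR called 0 members lower or higher than at 0 h, against 1.46% of all genes. HMOX1 (-0.89, adjusted p = 0.0888) and TXNRD1 (-0.25) had an unadjusted p under 0.05 there, and DESeq2 called 1, HMOX1, against 4.47% of all genes. At 3 h edgeR and DESeq2 called 0 of all genes, with 215 and 175 at an unadjusted p under 0.05 and none of the members among edgeR's. The rises of HMOX1 and TXNRD1 in PA at 24 h are thus set against controls that were themselves below 0 h. OSGIN1 in DMSO at 24 h changed by -0.72 from 0 h, not called (edgeR adjusted p = 0.1945, unadjusted p = 0.0203). Against the 0 h level, the mean in PA at 24 h was 44.2 ± 3.99 CPM beside 16.3 ± 1.94 for HMOX1 (SD, n = 2) and 607.5 ± 24.1 beside 376 ± 17.5 for TXNRD1.

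Beyond the members, 102 other genes in 7 lists, called the pathway lists, were examined. The lists hold regulators of NRF2 and genes of redox, NADPH, heme and iron handling. They were not restricted to NRF2 targets, and whether NRF2 acts on these genes was not tested. Changes of list genes below are not corrected for GC content and length unless a corrected value is named. Of the 102, 93 were in the counts and 86 were tested. GPX2, GPX8, GSTM3, SESN3, GLRX, AKR1C2, CBR1, CBR3 and UGT1A6 were not analysed here. At 3 h edgeR called 0 of 86. DESeq2 called 5 higher there, where it called 1.07% of all genes higher, and the corrected fit called 7 higher, beside 1.79% of all genes. At 12 h 44 were higher, 7 lower and 35 not called, and at 24 h 53 were higher, 7 lower and 26 not called. Higher calls made up 24.4% of all genes at 12 h and 27.2% at 24 h, and lower calls 24.1% and 27.5%. The counts of each list below are to be read beside these shares. The median log2 change of the 86 was 0.17, 0.51 and 0.70 at 3, 12 and 24 h. The lists were chosen with earlier results of these data known, so these counts describe them and are no independent test. Corrected counts at 24 h were 61 higher and 7 lower, beside 27% and 22.4% of all genes. With RPKM of at least 1 in 2 libraries 84 were tested, of which 42 were higher and 13 lower, with a median of 0.37, beside 21.3% and 43.9% of all genes.

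**Figure D5:**
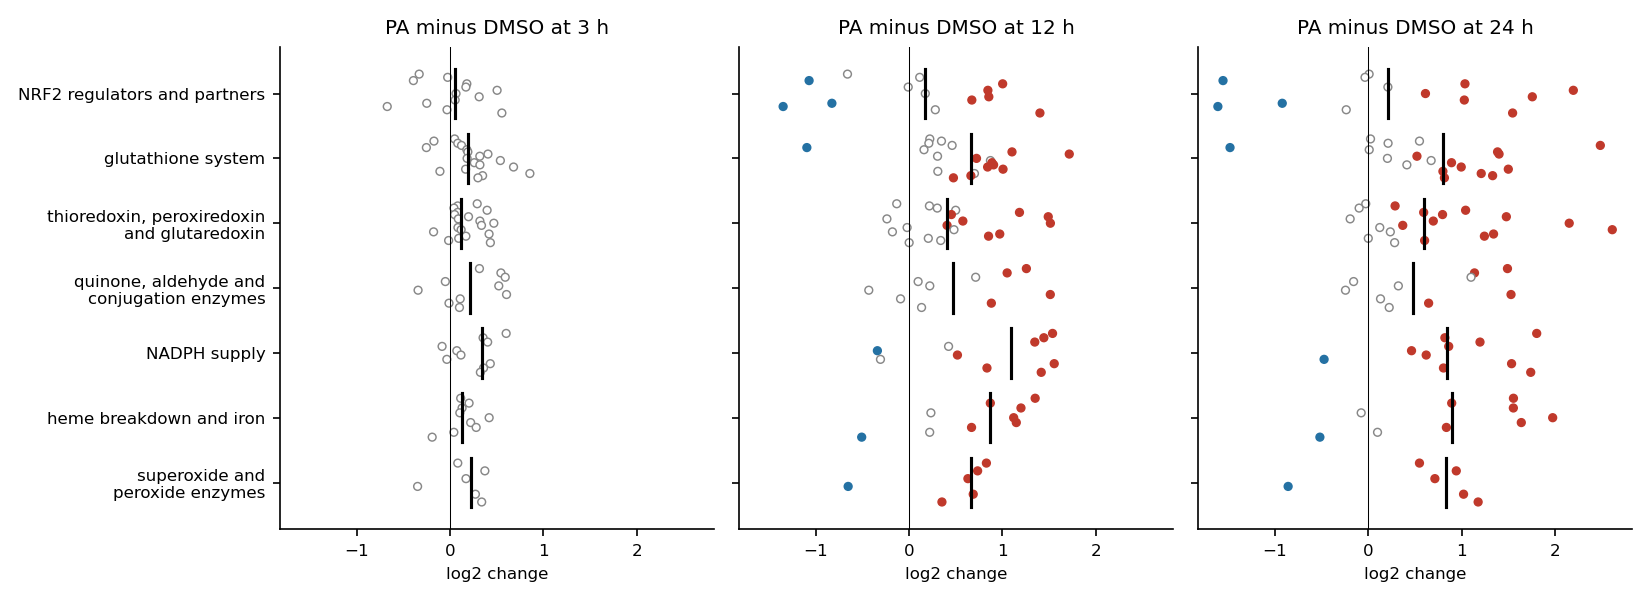
Log2 change of each tested gene of the 7 pathway lists, PA minus DMSO at 3, 12 and 24 h (x axes); red points are called higher, blue points lower, open points not called, and the vertical bar is the list's median. No gene is called at 3 h, and at 24 h the medians run from 0.21 for the regulators to 0.89 for heme breakdown and iron.

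Among 13 regulators and partners of NRF2, 6 were higher and 3 lower at 24 h, beside 27.2% and 27.5% of all genes. SQSTM1, the autophagy receptor that binds KEAP1, rose by 1.55, from 1225 ± 87.1 to 3577 ± 386 CPM (SD, n = 2; edgeR adjusted p = 1.37e-05). The small MAF genes MAFF (2.20) and MAFK (1.76), which encode partners of NRF2 on DNA, rose as well, before correction for GC content and length. MAFF stood at 13.8 ± 2.26 CPM in DMSO at 24 h and 63.2 ± 4.46 in PA, beside 49.8 ± 8.08 in DMSO at 0 h. CUL3, the scaffold of the ligase that degrades NRF2, fell by 1.55, from 184 ± 0.81 to 62.6 ± 15.7 CPM, and its corrected value was -0.51, still called. PALB2, a KEAP1-binding protein of DNA repair, fell by 1.61 before correction. The related factor gene NFE2L3 fell by 0.92, also before correction, a call lost without PA 24 h replicate 2 (-0.73). At 12 h SQSTM1 (1.40), DPP3 (1.002), another KEAP1-binding protein, and MAFK (0.85) were among the 5 rises, and PALB2 (-1.35), CUL3 (-1.07) and NFE2L3 (-0.83) were the 3 falls. Corrected values at 12 h were 0.16 for MAFK and -0.002 for CUL3, neither called, and the NFE2L3 call was lost without DMSO 12 h replicate 2 or PA 12 h replicate 1 (-0.80 and -0.43).

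In the glutathione system 11 of 19 genes were higher and 1 lower at 24 h, beside 27.2% and 27.5% of all genes. CHAC1, an enzyme that degrades glutathione, had the largest rise of that list, by 2.48, from 6.76 ± 0.614 to 37.9 ± 6.67 CPM (edgeR adjusted p = 5.8e-06, n = 2 per group). GPX4, the peroxidase of membrane lipids, rose by 1.40 (corrected 0.50) and the microsomal transferase MGST3 by 1.33. GGCT, which handles products of glutathione breakdown, fell by 1.48. At 12 h 9 rose and 1 fell, and the 3 rises with the smallest p were those of GPX4 (1.72), the mitochondrial and peroxisomal transferase GSTK1 (0.89) and glutathione synthetase GSS (0.72), with GGCT at -1.09. Corrected values were 0.89, 0.44 and 0.37 for the 3 rises, all called.

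Of 19 thioredoxin, peroxiredoxin and glutaredoxin genes 12 were higher and 0 lower at 24 h, where 27.2% of all genes were higher and 27.5% lower. SESN2, a stress-induced inhibitor of mTORC1 signalling, rose by 2.61, from 7.01 ± 0.788 to 42.9 ± 10.2 CPM. The peroxiredoxin genes PRDX5 and PRDX2 rose by 2.15 and 1.48 (edgeR adjusted p = 8.28e-06 and 3.58e-05). At 12 h 8 rose, among them PRDX5 (1.51), PRDX2 (1.49) and the methionine sulfoxide reductase gene MSRB1 (1.18; corrected 0.55). Quinone, aldehyde and conjugation enzymes gave 4 rises of 10 genes at both times and no falls. Of all genes 24.4% were higher at 12 h and 27.2% at 24 h. The rises included those of the aldo-keto reductase AKR1A1 (1.26 at 12 h and 1.49 at 24 h) and the epoxide hydrolase EPHX1 (1.51 and 1.53). PIR at 12 h (0.88) and AKR1B1 at 24 h (1.14) were also among them.

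In the NADPH supply list 9 of 10 genes were higher and 1 lower at 24 h, beside 27.2% and 27.5% of all genes. PGD of the pentose phosphate pathway rose by 1.54 (edgeR adjusted p = 5.02e-06) and the transketolase gene TKT by 1.74. NNT, the mitochondrial transhydrogenase, fell by 0.47, but its corrected value was 0.46, and the call was lost without DMSO 24 h replicate 2 or either PA library (-0.51 to -0.40). At 12 h 7 rose, among them PGD (1.55) and IDH1 (1.44), and MTHFD2 fell by 0.34. The MTHFD2 call reversed after correction (0.38) and was lost without either DMSO library or PA 12 h replicate 1.

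For heme breakdown and iron, 6 of 9 genes were higher and 1 lower at both times. Of all genes 24.4% were higher and 24.1% lower at 12 h, and 27.2% and 27.5% at 24 h. The ferritin chains FTH1 and FTL, which store iron, rose by 1.98 and 1.64 at 24 h (edgeR adjusted p = 9.03e-06 and 3.34e-05). FTH1 was at 205 ± 35.4 CPM in DMSO at 0 h, 70.7 ± 0.791 in DMSO at 24 h and 278 ± 8.58 in PA at 24 h. Ferritin genes have near-identical pseudogene copies, so their counts are uncertain. ABCB6, a porphyrin transporter, rose by 1.35 at 12 h and 1.56 at 24 h, and the biliverdin reductase gene BLVRA and FTL by 0.87 and 1.15 at 12 h. TFRC, the transferrin receptor, fell by 0.51 and 0.52, with corrected values of 0.19 and 0.22, not called, and each call was lost without any of 3 of its 4 libraries. Superoxide and peroxide enzymes had 5 of 6 genes higher and 1 lower at both times. Cytosolic SOD1 rose by 1.02 and mitochondrial SOD2 by 1.18 at 24 h, and the catalase gene CAT by 0.83 and PARK7 by 0.63 at 12 h. SOD2 stood at 194 ± 10.1 CPM in DMSO at 0 h, 121 ± 6.06 in DMSO at 24 h and 273.5 ± 3.31 in PA. CCS, the copper chaperone of SOD1, rose by 0.73 and 0.94, calls that ended after correction (-0.04 and 0.11), and the paraoxonase gene PON2 fell by 0.65 and 0.86.

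Each member was compared with 11400 tested genes by the root mean square difference of log2 CPM, centred on each gene's mean, over the 14 libraries. The closest profile to NFE2L2 was that of MYEF2 (0.105), where NFE2L2 itself varied by 0.560 about its mean, and EIF5 was next (0.106). HMOX1 was nearest to IFITM10 (0.202, against its own 0.839) and PTMS (0.214), and OSGIN1 to ITPKC (0.168, against its own 0.572) and SLC6A9 (0.180). GCLM lay nearest to TAB2 (0.101) and ITGA6 (0.102), NQO1 to DHX32 (0.084) and ICA1 (0.094), and TXNRD1 to PWP1 (0.142) and DNAJB6 (0.147). GCLM, NQO1 and TXNRD1 themselves varied by 0.491, 0.399 and 0.332. KEAP1 was nearest to ALG1 (0.065) and BAP1 (0.069), GCLC to CANX (0.083) and CUL4A (0.098), and SRXN1 to PNMA1 (0.095) and ZC3H7B (0.096). KEAP1, GCLC and SRXN1 varied little themselves, by 0.223, 0.165 and 0.257, so small differences mean less for them. SLC7A11 was nearest to FHL2 and CD59 (each 0.199, against its own 0.314). No member was among the 2 nearest genes of another. With 11400 genes compared and only 2 taken, this cannot show whether members moved together. These profiles were not corrected for GC content.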

How the data were processed

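The deposited counts are whole numbers of reads per gene and library, not normalized, and the deposited RPKM values were made by the authors for 25447 of the 28120 genes. The submitters' processing notes name TopHat2, edgeR and GRCh38, without versions; no source used here gives the counting tool, annotation release or strand setting. An empty extra field in 8163 lines of the counts was skipped, and columns were matched to libraries by name.

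In R 4.3.3, edgeR 4.0.16 scaled counts by TMM, kept the 15181 genes passing filterByExpr and fitted 1 mean per group over all 14 libraries (7 residual degrees of freedom; biological coefficient of variation 15.1%). Tests were two-sided quasi-likelihood tests, with Benjamini-Hochberg adjustment across the 15181 genes and a threshold of 0.05. A count of 0 allows up to 3 reads, 0.0852 to 0.114 CPM, for counting error only. GC content and length came from the longest basic transcript in GENCODE 29 (15071 tested genes); each library's spline trend (5 degrees of freedom) entered as an offset. Count ratios were tested by exact permutation within times, adjusted over 3 ratios.

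The members, the pathway lists and the tests were chosen with earlier results of these data known. Named were the 10 members, for each list and PA time up to 3 called genes each way with the smallest p, the markers, SLC3A2 as the partner in a ratio, and the 2 genes most like each member among those with a mean of at least 2 CPM. A list gene that this rule names is not reported here. Alternatives were DESeq2 1.42.0 and its size factors, other filters, limma 3.58.1 on log2(RPKM + 1) and log2(RPKM + 0.1), the 4 or 8 libraries of a comparison alone, a replicate block and leaving out each library. The correction of the ratios for GC content was chosen after seeing the data. The fit was tested on simulated data.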

Additional observations from a re-analysis of the deposited data

Results flagged for a closer look

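The change under PA differed between times for 3 members, by the test of the difference itself (edgeR's quasi-likelihood test, adjusted over all genes). The TXNRD1 change at 24 h was 0.924 higher on the log2 scale than that at 12 h. Against 3 h, the changes at 24 h were higher by 1.644 for HMOX1, 0.565 for NQO1 and 1.125 for TXNRD1. All 4 values rest on groups of 2 libraries, and 3 of them, all but that of TXNRD1 against 3 h, lost the call without single libraries or under other settings. On the RPKM scales NQO1 came to 0.214 to 0.216 (limma adjusted p = 0.347 to 0.462), and with the comparison's own 8 libraries TXNRD1 against 12 h had an edgeR adjusted p of 0.228.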

How the results depend on the processing

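Across the alternatives, HMOX1, NQO1, TXNRD1 and OSGIN1 were called higher in PA at 24 h in every one, and HMOX1 and NQO1 higher and NFE2L2 lower at 12 h, with ranges at 24 h of 1.84 to 2.63 for HMOX1 and 0.83 to 1.57 for TXNRD1. The correction for GC content and length reversed KEAP1 (-0.107 at 12 h, -0.216 at 24 h), GCLM (0.234 at 24 h), GCLC (0.400 at 24 h), SLC7A11 (0.626 at 12 h), CCS (-0.039 at 12 h), MSRB1 (-0.077 at 24 h), MTHFD2 (0.378 at 12 h), NNT (0.660 at 12 h, 0.459 at 24 h), TFRC (0.195 at 12 h, 0.222 at 24 h) and the ratio of SLC7A11 to SLC3A2 (0.860), and left the ratio of GCLM to GCLC at -0.020. Together with a replicate block the same values were -0.107, -0.216, 0.235, 0.400, 0.630, -0.037, -0.087, 0.381, 0.658, 0.460, 0.196 and 0.225, in that order without the ratios. SLC7A11 gives no value with at least 5 CPM or with RPKM of at least 1.

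Counts of called members that moved by over 1.5 times were as follows, and the cause was not tested. At 3 h 1 was called by DESeq2, without the filter, with the correction (alone or with the block) and with the comparison's own libraries. In that order these settings called 3.85%, 3.97%, 4.32%, 3.37% and 8.29% of all genes, where 1.72% were called without such changes. At 12 h 4 were called with the correction, alone or with the block, beside 40.2% and 39% of all genes, against 48.5%. The other settings that left out no single library gave 5 to 7 at 12 h and 6 or 7 at 24 h. They called 24.8% to 61.8% of all genes at 12 h and 28.7% to 66.1% at 24 h. KEAP1 lost its call at 24 h in 6 of 11 settings. For 12 h against 3 h the count was 1 with DESeq2, without the filter and with the correction, alone or with the block. These called 7.96%, 6.43%, 6.96% and 6.11% of all genes, against 2.79%. For 24 h against 12 h it was 0 with the replicate block, with filtered RPKM and with the comparison's own libraries. All genes were called at 0.152%, 0.661% and 0% there, against 0.422%. For 24 h against 3 h it was 1 with log2(RPKM + 1), which called 6.8% of all genes, against 14.4%. For DMSO at 12 h it was 1 with DESeq2 (4.47% of all genes), without the filter (3.02%) and with the comparison's own libraries (20.2%), against 1.46%. It was also 1 with the correction and block (4.19%), and 2 with the correction alone (5.36%). For DMSO at 24 h it was 1 with DESeq2 size factors (2.38% of all genes) and with the replicate block (1.71%), against 2.46%. It was 5 with the correction, alone (9.05%) or with the block (7.97%), and with the comparison's own libraries (18.5%). Either unfiltered RPKM scale gave 0 (1.16% and 1.15% of all genes). Leaving out 1 library gave 4 to 7 members at 12 h, 5 to 7 at 24 h, 0 to 3 for 12 h against 3 h, 0 to 2 for 24 h against 12 h, 1 to 3 for 24 h against 3 h, and 0 for DMSO at 24 h. The ratios then ran from -1.318 to -0.953 (NFE2L2 to KEAP1), -0.620 to -0.548 (GCLM to GCLC) and -0.723 to -0.492 (SLC7A11 to SLC3A2).

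Libraries sharing a replicate number did not deviate together: the correlation of their deviations from the group means was over 0.1 in 2 of 21 comparisons of groups (range -0.218 to 0.244). The replicate block changed 4 of the 204 tests of single genes: NQO1 for 24 h against 3 h (0.565, edgeR adjusted p = 0.0624), TXNRD1 for 24 h against 12 h (0.924, adjusted p = 0.0571), and HMOX1 (-1.013, adjusted p = 0.0753) and TXNRD1 (-0.466, adjusted p = 0.0714) in DMSO at 24 h, all 4 past the threshold without it.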
